A study of Mus musculus with 4 samples.

Results

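The genes described here are 32 mouse genes of glycolysis and of the cellular response to low oxygen, out of 22631 gene rows that both count matrices hold. They were taken from a list of gene names, with no threshold on measured values but with earlier results of these data known, and form 2 subsets. The glycolysis subset has 17 genes for sugar uptake, the enzymes of the pathway and lactate export, and the hypoxia subset has 15 genes that respond to low oxygen or control that response. All 32 names were found. Aldoa occurs as 2 rows with separate identifiers, and the second row held 0 UMIs (unique molecular identifiers, each marking 1 captured transcript) in the sorted populations, so the row with 12553 UMIs stands for the gene.

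The cells were migratory dendritic cells (DCs) from the lymph nodes that drain the mouse ear, sorted as B220-negative cells with intermediate CD11c and high MHC class II. All mice carried 1 knock-in allele at Tnfsf4 (Tnfsf4KI/+), which reports the ligand OX40L with the blue fluorescent protein BFP. The ears either received MC903 on days 0, 2 and 4 or were left untreated, and tissue was taken on day 5. MC903, also called calcipotriol, is a vitamin D analogue, and the submitters describe it as a model in which the skin cytokine TSLP is overexpressed. The 4 populations were MC903 BFP+, MC903 BFP-, untreated BFP+ and untreated BFP- cells, with 5000 BFP+ and 7000 BFP- cells sorted per treatment and labelled with 1 hashtag antibody each. MC903 and untreated cells were captured, made into libraries and sequenced in separate lanes, so treatment, capture and lane cannot be told apart. Each population is 1 pool, and the labels do not say how many mice it came from. There is therefore no test across samples and no p-value here, and every interval is an exact 95% interval that covers counting error only.

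Glycolysis splits glucose to pyruvate in the cytosol. Glucose enters through transporters such as Slc2a1, hexokinases trap it by phosphorylation, phosphofructokinase commits it to the pathway, and Ldha turns pyruvate into lactate, which Slc16a3 exports. In low oxygen the prolyl hydroxylases (Egln genes) stop marking Hif1a protein for degradation, and Hif1a then switches on many glycolytic genes together with targets such as Vegfa, Bnip3 and Hilpda. Dendritic cells are known to raise glycolysis when they are activated, and Hif1a is controlled largely at the protein level, which transcript counts do not show.

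The core of the DNA motif that Hif1a binds reads ACGTG or GCGTG. The windows of 250 bases before the annotated start site are shown for the glycolysis gene that lay farthest from its untreated level, Hk2, and for 3 hypoxia genes that were lower in the MC903 BFP- cells. They are from RefSeq (build GRCm38.p6), 5′ to 3′ on the gene's strand, with each ACGTG or GCGTG on either strand in capitals, which can overlap the E-box CACGTG.
Hk2 (chr6:82774455-82774704, minus strand): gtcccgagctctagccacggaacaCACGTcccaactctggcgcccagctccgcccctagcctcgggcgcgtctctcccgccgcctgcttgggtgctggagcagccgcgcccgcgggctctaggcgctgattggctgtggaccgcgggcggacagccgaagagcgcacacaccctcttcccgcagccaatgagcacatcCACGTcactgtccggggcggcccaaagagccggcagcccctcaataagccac
Hilpda (chr6:29272238-29272487, plus strand): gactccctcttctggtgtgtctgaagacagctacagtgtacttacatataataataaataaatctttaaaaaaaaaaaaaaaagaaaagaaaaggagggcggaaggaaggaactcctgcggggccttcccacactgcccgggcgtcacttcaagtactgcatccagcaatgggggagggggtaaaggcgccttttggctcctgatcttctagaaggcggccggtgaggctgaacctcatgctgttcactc
Pdk1 (chr2:71872974-71873223, plus strand): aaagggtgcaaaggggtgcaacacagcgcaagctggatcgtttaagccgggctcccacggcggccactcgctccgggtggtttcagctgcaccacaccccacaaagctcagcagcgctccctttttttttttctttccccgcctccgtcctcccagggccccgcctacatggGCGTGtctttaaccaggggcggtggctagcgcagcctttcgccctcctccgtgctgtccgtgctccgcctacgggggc
P4ha1 (chr10:59323046-59323295, plus strand): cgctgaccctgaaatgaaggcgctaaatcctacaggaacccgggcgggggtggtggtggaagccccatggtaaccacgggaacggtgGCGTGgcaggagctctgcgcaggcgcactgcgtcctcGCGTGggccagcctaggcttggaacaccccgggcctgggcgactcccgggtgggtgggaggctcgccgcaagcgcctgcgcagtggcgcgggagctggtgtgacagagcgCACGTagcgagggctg
The Hk2 window holds the motif 2 times, the Pdk1 window 1 time and the P4ha1 window 3 times, and the letters do not occur in the Hilpda window. RefSeq windows were matched for 29 of the 32 genes, all but Slc2a3, Ero1l and Ndrg1. Some genes had more than 1 window, among them Hilpda and Pdk1 with 2 each. Only 1 window per gene was counted, so a motif at another start site is not seen here. At least 1 motif was present in 21 of these 29 windows (72.4%), against 38.6% of 27025 gene windows of the same length. ACGTG alone was present in 15 of 29 (51.7%), against 16.5% of all, and CACGTG in 4 (13.8%), against 6.04%. The 27025 windows were not limited to genes expressed in these cells or to windows of like base content, so the shares do not show enrichment among such genes. A match describes the letters and is not evidence that a factor binds there.

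After removal of barcodes with fewer than 500 genes or more than 10% mitochondrial UMIs, and with a gate for maturation genes of migratory DCs such as Ccr7 and Fscn1, the MC903 capture gave 1354 BFP+ and 3041 BFP- DCs, and the untreated capture gave 419 BFP+ and 3826 BFP- DCs. These sizes rest on how barcodes were assigned to hashtags. With HTODemux, the other hashtag rule tried, the MC903 DCs numbered 1417 BFP+ and 2223 BFP-, but the untreated DCs numbered 1591 BFP+ and 681 BFP-, so every BFP+ or BFP- value of the untreated capture depends on that choice. The median depths under the rule used here were 10145 and 9463 UMIs per barcode after MC903, against 4914 and 2626.5 UMIs without treatment. The reporter transcript BFP ran at 106.3 and 79.5 CPM (UMIs of the gene scaled to a common library total, on the usual CPM scale) in the MC903 and untreated BFP+ cells, against 10.2 and 6.25 CPM in the BFP- cells of the same captures. Summed markers of macrophages and monocytes (8 of 8 genes detected in every population) stood at 153 and 221 CPM in MC903 BFP+ and BFP- cells, against 667 and 442 CPM in the untreated ones. Neutrophil markers (4 genes) stood at 11.4 and 4.15 CPM, against 22.1 and 172 CPM. Erythroid markers (4 haemoglobin genes) stood at 0.952 and 0.653 CPM after MC903, against 359 CPM in untreated BFP+ and 13.6 CPM in untreated BFP- cells. T cell markers stood at 13.8 and 13.1 CPM, against 28.0 and 50.2 CPM, and B cell markers at 8.1 and 7.35 CPM, against 15.2 and 36.1 CPM. The part of erythroid cells in the results was not tested. The captures shared 23 barcode sequences, 21 of them after filtering.

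Of the 32 genes, 16 averaged 20 CPM or more over the 4 populations, as did 4758 genes in all. They were 10 glycolysis genes (Gapdh, Aldoa, Gpi1, Pkm, Pgk1, Ldha, Pgam1, Tpi1, Eno1 and Pfkp) and 6 hypoxia genes (Pfkfb3, Ndrg1, Mif, Hif1a, Egln1 and Hilpda). The other 16 genes averaged less, and their ratios rest on few UMIs. They are set beside other genes under 20 CPM, in shares and medians. Those genes averaged at least 0.496 CPM, the level of Pfkm, the lowest of the 32. They also had at least 1 UMI in both populations compared, so genes absent from either one are left out. A gene is called apart between 2 populations where its CPM differed at least 1.5-fold, which is a size and not a test.

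**Figure D1:**
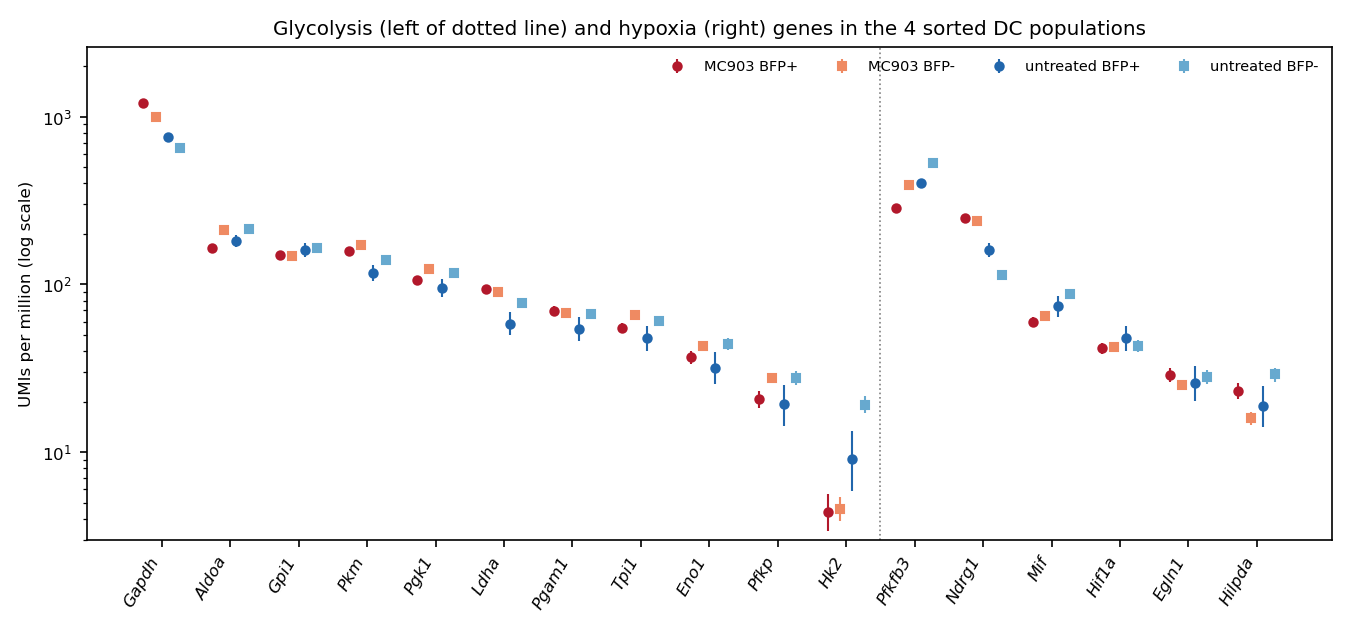
CPM (log axis) of the 16 genes at 20 CPM or more and of Hk2, glycolysis on the left and hypoxia on the right, with points for the 4 populations and exact 95% counting intervals. Gapdh and Ndrg1 sit higher in both MC903 populations, Pfkfb3 and Hk2 lower, and most of the other genes stay close together.

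The MC903 comparison asks whether DCs of treated ears carried other levels of these transcripts than DCs of untreated ears. In BFP+ cells Gapdh, Ldha and Ndrg1 were more than 1.5-fold higher after MC903, and in BFP- cells Ndrg1 and Gapdh were higher and Hilpda lower. Hk2, an inducible hexokinase at the entry of the pathway, was lower in both and averaged under 20 CPM. The other 8 measured enzymes in BFP+ cells, and the other 9 in BFP- cells, were less than 1.5-fold apart. Of these calls at 1.5-fold, that of Ndrg1 in BFP- cells held under every setting tried. Ldha in BFP+ cells fell short under 4 settings, with a lowest log2 ratio of 0.34 with no DC gate and 0.39 with HTODemux. Ndrg1 in BFP+ cells fell short under 4, with a lowest of 0.50 at a mitochondrial limit of 5%. Gapdh fell short in BFP+ cells at 0.58, with each barcode counted equally, and in BFP- cells under 3 settings, with a lowest of 0.46 when barcodes were thinned to 2000 UMIs. Hilpda in BFP- cells fell short under 1, given below. Among BFP+ cells 3 of the 16 genes were apart, all of them higher, where 7.08% of the 4758 genes were apart and 2.94% were higher. Among BFP- cells 3 of 16 were apart, where 8.76% of all genes were, 4.67% higher and 4.1% lower.

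Hk2 (chr6:82725025-82774454) had 4.42 CPM in MC903 BFP+ cells and 4.61 CPM in MC903 BFP- cells, against 9.08 CPM in untreated BFP+ and 19.2 CPM in untreated BFP- cells. These values rest on 65, 141, 25 and 283 UMIs in that order of populations. Both MC903 populations were lower than both untreated ones. The log2 ratio of MC903 to untreated was -1.04 (95% interval -1.72 to -0.31) in BFP+ cells and -2.06 (-2.36 to -1.76) in BFP- cells. Genes with low counts ran lower after MC903 in general. Of the 6944 genes under 20 CPM with UMIs in both BFP- populations, 3.41% had a ratio at or below that of Hk2. Of the 6785 such genes in BFP+ cells, 12.9% did. Shares were also taken with barcodes thinned to 2000 UMIs. In all thinned values barcodes under 2000 UMIs were left out. These were 14 MC903 BFP+ and 38 MC903 BFP- DCs, against 44 untreated BFP+ and 738 untreated BFP- DCs. An Hk2 UMI was then present in 0.672% of MC903 BFP+ cells and 0.899% of MC903 BFP- cells. In untreated cells it was present in 2.13% of BFP+ and 3.21% of BFP- cells. Without thinning the shares were 3.91% and 4.01% after MC903, against 4.3% and 5.12% in the shallower untreated cells.

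The Hk2 UMIs were few per cell. At least 1 Hk2 UMI was seen in 53 and 122 MC903 BFP+ and BFP- barcodes, against 18 and 196 untreated ones, and 5 or more were seen in 0 and 1, against 0 and 7. In untreated BFP- cells 1 barcode alone held 21 of 283. Hk2 UMIs were also fewer in the MC903 capture in barcodes with lymphocyte markers. RNA free in the droplets was not estimated, and its part in these values was not tested. Barcodes with T cell markers had 16.0 CPM (11.4 to 21.6) in the MC903 capture, against 26.6 CPM (19.4 to 35.6) in the untreated capture. Barcodes with B cell markers had 8.35 CPM (5.1 to 12.9), against 17.4 CPM (11.3 to 25.4). In both kinds of barcode the intervals of the captures overlap at their ends. Whether the Hk2 difference follows the treatment or the capture cannot be told apart. Without barcodes holding more than 2 macrophage, monocyte or neutrophil UMIs the BFP- ratio was -1.85.

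Of the genes for uptake and export, Slc2a3 was apart in BFP+ cells, and Slc2a1 and Slc16a3 were not apart. Slc2a1, the main glucose transporter, had 4.08 and 5.52 CPM in MC903 BFP+ and BFP- cells, against 3.63 and 5.09 CPM in untreated ones, with log2 ratios of 0.17 (-0.81 to 1.30) and 0.12 (-0.28 to 0.53). Counting error alone spans a fold of 1.5 in either direction for BFP+ cells, so a difference of that size was not detectable there. Slc2a3, another glucose transporter, which is named after its values were seen, had 10.54 and 9.02 CPM in MC903 BFP+ and BFP- cells, against 5.45 and 10.7 CPM in untreated ones. The low value was that of untreated BFP+ cells, which rests on 15 UMIs. The ratio of MC903 to untreated was 0.95 (0.19 to 1.83) in BFP+ cells, and 5.67% of the genes under 20 CPM lay at or above it. In BFP- cells it was -0.25 (-0.54 to 0.04). Slc16a3 had 5.24 and 5.65 CPM, against 3.99 and 5.23 CPM. Of the 7 glycolysis genes under 20 CPM, 1 was higher and 1 lower in BFP+ cells, where 36.1% of the genes under 20 CPM were apart, 10.8% higher and 25.3% lower. In BFP- cells 0 were higher and 2 lower, where 32.3% of such genes were apart, 6.22% higher and 26.1% lower. The median of these 7 genes was 0.17 in BFP+ cells and -0.20 in BFP- cells, against -0.18 and -0.25 for all genes under 20 CPM.

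Gapdh (chr6:125161715-125166467), which oxidises glyceraldehyde 3-phosphate, had 1199 CPM in MC903 BFP+ and 992 CPM in MC903 BFP- cells, against 755 CPM in untreated BFP+ and 647 CPM in untreated BFP- cells. Its log2 ratio was 0.67 (0.60 to 0.73) in BFP+ and 0.62 (0.58 to 0.65) in BFP- cells. Gapdh and several other enzyme genes have near-identical processed copies in the mouse genome, and reads shared with such copies could be lost from these counts. Ldha had 94.5 and 89.7 CPM in MC903 BFP+ and BFP- cells, against 58.4 and 77.2 CPM in untreated ones. Its ratio was 0.69 (0.46 to 0.94) in BFP+ cells and 0.22 (0.12 to 0.32) in BFP- cells. The BFP- ratio of Ldha was -0.12 when each barcode counted equally. Pkm, which makes pyruvate, had 157.6 and 170.9 CPM after MC903, against 117.6 and 139.7 CPM, with ratios of 0.42 (0.25 to 0.59) and 0.29 (0.22 to 0.37).

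The remaining 7 measured enzymes, Gpi1, Pfkp, Aldoa, Tpi1, Pgk1, Pgam1 and Eno1, had log2 ratios between -0.14 (Aldoa) and 0.37 (Pgam1) in BFP+ cells and between -0.16 (Gpi1) and 0.12 (Tpi1) in BFP- cells. The median over the 10 measured glycolysis genes was 0.20 in BFP+ cells, with 8 above 0, and 0.05 in BFP- cells, with 6 above 0, against -0.03 for all 4758 genes in both. The sum of the 17 genes was 2110 and 1997 CPM in MC903 BFP+ and BFP- cells, against 1586 and 1636 CPM in untreated ones. Gapdh accounts for most of that gap. Without it the sums were 911 and 1005 CPM, against 831 and 989 CPM.

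Among the hypoxia genes Ndrg1 (chr15:66929318-66969640), a gene induced by hypoxia and by differentiation signals, differed most. It had 249 CPM in MC903 BFP+ and 239 CPM in MC903 BFP- cells, against 160.1 CPM in untreated BFP+ and 113 CPM in untreated BFP- cells. The MC903 populations were close to each other and above both untreated ones. Its log2 ratio was 0.64 (0.49 to 0.78) in BFP+ and 1.08 (1.0 to 1.15) in BFP- cells. In BFP- cells 1.11% of the 4758 genes had a ratio at or above that of Ndrg1. At 2000 UMIs per barcode, an Ndrg1 UMI was present in 32.01% of MC903 BFP+ and 31.3% of MC903 BFP- cells, against 21.6% of untreated BFP+ and 16.7% of untreated BFP- cells. Barcodes with B cell markers had 77.6 CPM (66.9 to 89.6) in the MC903 capture, against 28.7 CPM (20.8 to 38.7) in the untreated one. Barcodes with T cell markers had 77.0 CPM (66.7 to 88.5), against 50.3 CPM (40.2 to 62.2). In both kinds of barcode the MC903 capture was thus higher, as in the DCs, and the level was below that of DCs in the same capture. RNA free in the droplets was not estimated, so these values do not show Ndrg1 expression in lymphocytes, and the part of the capture in the ratio was not tested.

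Pfkfb3 (chr2:11471433-11554077) makes and breaks down the activator of phosphofructokinase. It had 284 CPM in MC903 BFP+ and 393 CPM in MC903 BFP- cells, against 403 CPM in untreated BFP+ and 530.2 CPM in untreated BFP- cells. Within each reporter class the MC903 cells were lower. The log2 ratios were -0.50 (-0.60 to -0.41) and -0.43 (-0.47 to -0.39), short of 1.5-fold. Pfkfb3 was also lower in the MC903 capture in barcodes with B cell markers, at 82.2 CPM (71.2 to 94.6) against 160 CPM (140 to 181). Mif, a cytokine gene induced by Hif1a, had 59.5 and 64.6 CPM after MC903, against 74.1 and 87.3 CPM, with ratios of -0.32 (-0.54 to -0.09) and -0.43 (-0.54 to -0.33).

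Hilpda (chr6:29272488-29275446), which blocks breakdown of stored fat and is a Hif1a target, was lower after MC903 in BFP- cells and not apart in BFP+ cells. It had 23.2 CPM in MC903 BFP+ and 16.0 CPM in MC903 BFP- cells, against 18.9 CPM in untreated BFP+ and 29.1 CPM in untreated BFP- cells. The ratio was 0.30 (-0.13 to 0.75) in BFP+ cells, an interval that holds 0, and it ran from -0.30 (in barcodes of 4000 to 16000 UMIs) to 0.74 over the settings tried. It was -0.86 (-1.05 to -0.67) in BFP- cells. Its UMIs were concentrated in few barcodes, since 134 and 224 MC903 BFP+ and BFP- barcodes held any, and 18 and 24 held 5 or more. In untreated BFP+ and BFP- cells 23 and 240 barcodes held any, and 2 and 15 held 5 or more. Without barcodes holding more than 2 macrophage, monocyte or neutrophil UMIs the BFP- ratio was -0.42. The part of those cells in the ratio was not tested further.

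Hif1a itself had 41.6 and 42.2 CPM in MC903 BFP+ and BFP- cells, against 47.9 and 42.9 CPM in untreated ones. Its log2 ratios of -0.21 (-0.48 to 0.08) and -0.02 (-0.16 to 0.12) had intervals that hold 0 and that leave out a 1.5-fold difference in either direction. Egln1, a prolyl hydroxylase, had ratios of 0.17 (-0.20 to 0.55) and -0.15 (-0.33 to 0.02). The median over the 6 measured hypoxia genes was -0.02 in BFP+ and -0.29 in BFP- cells, with 3 and 1 of them above 0.

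Of the 9 hypoxia genes under 20 CPM, 5 were more than 1.5-fold lower after MC903 in BFP- cells and 1 was higher, where 26.1% of low genes were lower and 6.22% higher. In BFP+ cells 1 was lower and 0 were higher, where 25.3% and 10.8% were. The median of the 9 was -0.63 in BFP- cells, against -0.25 for all genes under 20 CPM, and -0.07 in BFP+ cells, against -0.18. The 5 lower genes in BFP- cells, named after their values were seen, were Pdk1, Bnip3, P4ha1, Vegfa and Ankrd37. Pdk1 inhibits pyruvate dehydrogenase, and Bnip3 marks mitochondria for removal. P4ha1 is a collagen prolyl hydroxylase subunit, and Vegfa is the blood vessel growth factor. Ankrd37 rests on 35 UMIs in MC903 BFP- and 26 UMIs in untreated BFP- cells. Its log2 ratio of -0.63 (-1.40 to 0.16) has an interval that holds 0. Pdk1 had 2.97 CPM in MC903 BFP- cells, against 5.5 CPM in untreated BFP- cells, a log2 ratio of -0.89 (-1.34 to -0.44). Vegfa had 10.4 CPM, against 16.4 CPM, a ratio of -0.66 (-0.91 to -0.41). In BFP+ cells Vegfa had 10.1 CPM after MC903, against 13.4 CPM, a ratio of -0.41 (-0.93 to 0.15), and 1 untreated barcode held 10 of its 37 UMIs. That BFP+ ratio was 1.09 when barcodes with any T or B cell UMI were left out. Ddit4, an inhibitor of mTOR signalling, had 18.6 and 16.0 CPM after MC903, against 17.4 and 19.8 CPM, with ratios of 0.09 (-0.35 to 0.57) and -0.31 (-0.52 to -0.09).

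**Figure D2:**
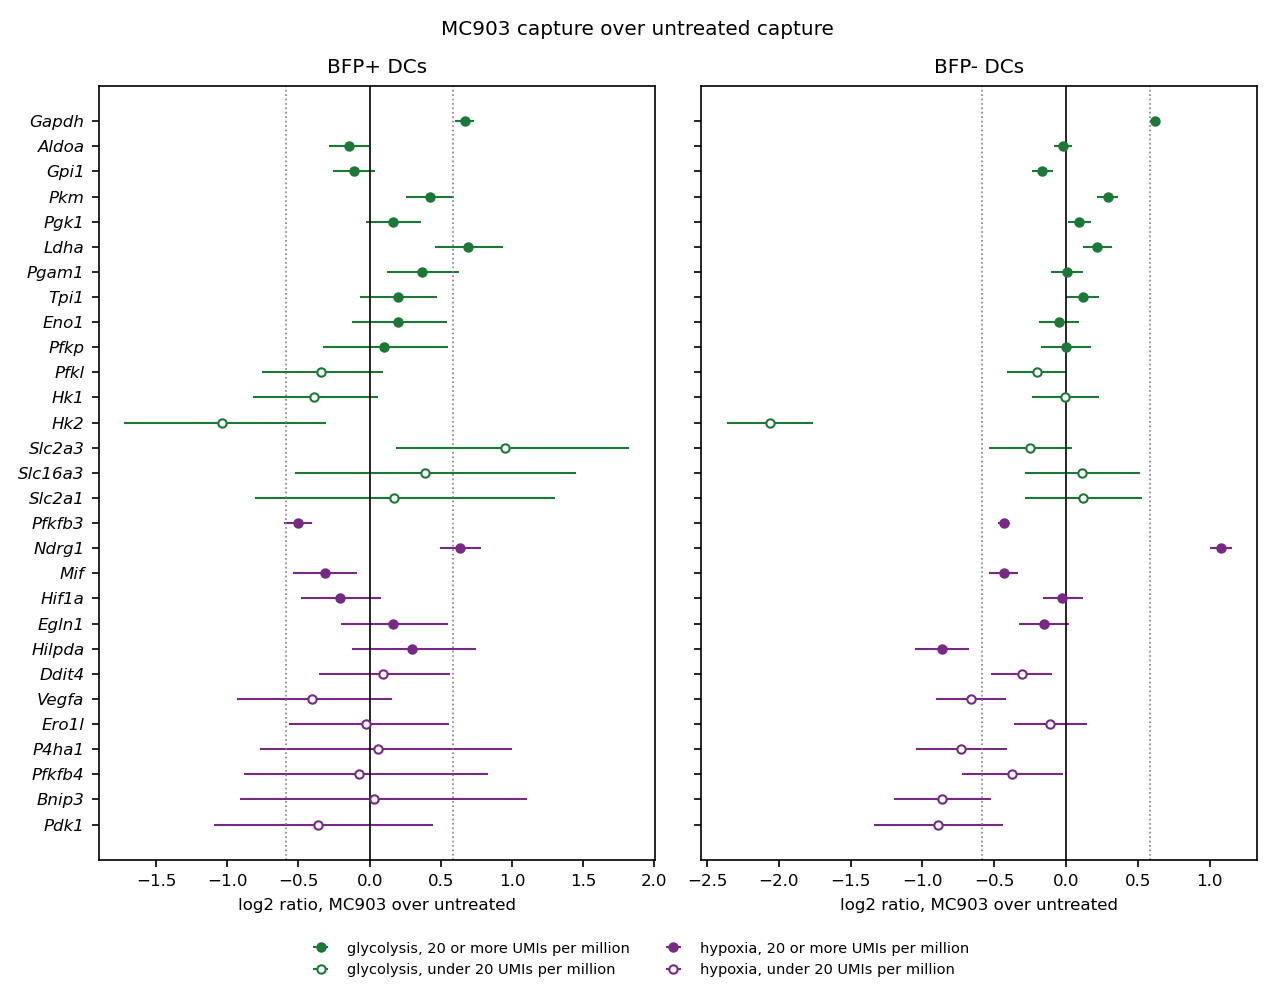
Log2 ratio of MC903 to untreated CPM in BFP+ cells (left) and BFP- cells (right) for 29 of the 32 genes, with exact 95% counting intervals, open points for genes under 20 CPM and dotted lines at 1.5-fold, with x axes that differ between panels. The 3 genes with the fewest UMIs (Pfkm, Egln3 and Ankrd37) are left out. Hk2 at -2.06 and Ndrg1 at 1.08 lie farthest from 0 in BFP- cells.

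Depth differed between the captures, and the Gapdh and Ldha differences varied with it. In BFP- barcodes with 4000 to 8000 UMIs Gapdh had 632 CPM (611 to 654) after MC903, against 605 CPM (576 to 635) without treatment. In barcodes with 8000 to 16000 UMIs it had 1006 CPM (992 to 1020), against 612 CPM (588 to 636). In the shallower class the intervals overlap and in the deeper one they lie far apart. Ldha had 53.4 CPM (47.4 to 59.9) after MC903 in the class of 4000 to 8000 UMIs, against 65.5 CPM (56.1 to 76.0), and 80.9 CPM (76.9 to 85.1) in the class of 8000 to 16000 UMIs, against 59.6 CPM (52.4 to 67.4). The sign of its difference thus turned between the depth classes.

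Hk2 and Ndrg1 kept their side at each depth. Hk2 had 2.58 CPM (1.41 to 4.33) in MC903 BFP- barcodes of 4000 to 8000 UMIs, against 15.8 CPM (11.4 to 21.4) in untreated ones, and 4.83 CPM (3.9 to 5.93) against 24.1 CPM (19.6 to 29.2) in those of 8000 to 16000 UMIs. Ndrg1 had 258 CPM (244 to 272) in the class of 4000 to 8000 UMIs after MC903, against 114 CPM (102 to 128), and 237 CPM (230.1 to 244) in the deeper class, against 119.6 CPM (109 to 131). Their intervals do not overlap between the captures at either depth. Hilpda was also lower after MC903 in both classes, at 6.26 CPM (4.34 to 8.75) against 18.1 CPM (13.3 to 24.0) and at 16.0 CPM (14.2 to 17.9) against 37.6 CPM (32.01 to 44.0).

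**Figure D3:**
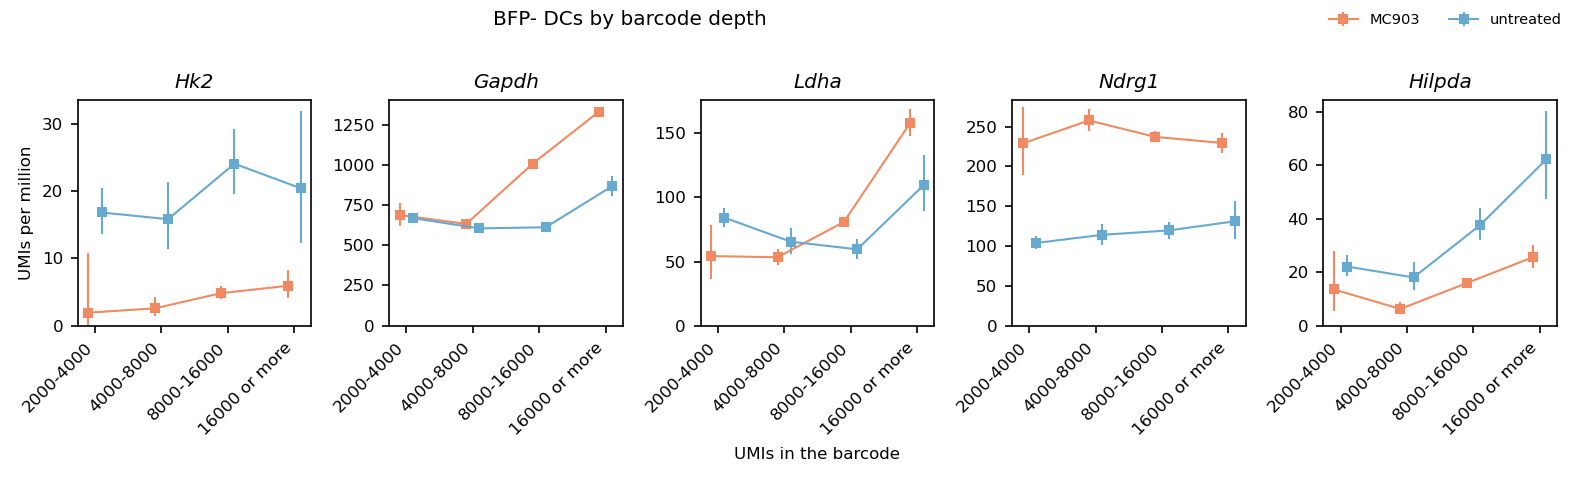
CPM of 5 genes in BFP- DCs grouped by the UMIs of the barcode, MC903 and untreated, with exact 95% counting intervals. The intervals of Gapdh and Ldha overlap between captures below 8000 UMIs and lie apart above, while Hk2 stays lower and Ndrg1 higher after MC903 throughout.

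Pathway genes outside the 32 were read from lists that were likewise chosen by name, with earlier results of these data known. Of 11 measured genes of other glycolytic and pentose phosphate steps, 1 was apart in BFP+ cells (Tkt, transketolase, at 169.7 CPM after MC903 against 111.8 CPM, a log2 ratio of 0.60) and 0 in BFP- cells. Their medians were 0.07 and 0.01. Of 18 further measured hypoxia genes, 3 were lower and 1 higher in each reporter class, with medians of -0.24 and -0.19. Over all 4758 genes 4.14% were lower and 2.94% higher in BFP+ cells, and 4.1% lower and 4.67% higher in BFP- cells. Cxcr4, a chemokine receptor, had 40.0 and 50.1 CPM in MC903 BFP+ and BFP- cells, against 78.8 and 107.5 CPM in untreated ones, with ratios of -0.98 (-1.20 to -0.75) and -1.10 (-1.20 to -1.0). Adm, adrenomedullin, had 39.6 and 42.4 CPM, against 64.6 and 68.1 CPM. The kinase gene Pdk3 had 14.6 and 19.8 CPM, against 22.1 and 35.6 CPM, and it was the third lower gene in each class. The higher gene was Jmjd6 in BFP+ cells, at 0.60 (0.15 to 1.09), and Mxi1 in BFP- cells, at 0.71 (0.60 to 0.83).

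None of the 19 oxidative phosphorylation genes was apart in either class, with medians of 0.05 and 0.02. Of 10 handling and immediate early genes, 1 was higher (Jun) and 1 lower (Egr1) after MC903 in BFP+ cells, where 2.94% and 4.14% of all genes were. In BFP- cells 0 were higher and 3 lower, where 4.67% and 4.1% were, among them Hspa1b with 366 CPM against 672 CPM, and the median of that list was -0.42, against -0.07 in BFP+ cells. The 8 housekeeping genes had medians of 0.08 in both classes, with Tubb5 at 0.42 and 0.47 and Ppia at 0.29 and 0.36.

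The reporter comparison asks whether cells with OX40L reporter differed from those without it in the same capture, where both share library and lane. The mix of DC types, gated by markers as given below, differed between the reporter classes. The cDC1-like cells were 16.2% of MC903 BFP+ and 27.9% of MC903 BFP- DCs. In untreated DCs they were 13.4% of BFP+ and 19.6% of BFP- cells. Ratios of BFP+ to BFP- cells within a type are not given, and the part of the mix in the ratios was not tested. After MC903, 0 of the 16 genes were apart between BFP+ and BFP- cells, where 2.82% of all genes were. In untreated cells 1 of 16 was apart, Hilpda, which was lower in BFP+ cells, where 5.91% of all genes were apart, 3.3% higher and 2.61% lower. The median over the glycolysis genes was -0.17 after MC903 and -0.30 without treatment, against -0.02 and -0.00 for all genes. Below 0 lay 6 of 10 glycolysis genes after MC903 and 9 of 10 in untreated cells. The untreated values depend on the hashtag rule. With HTODemux the untreated glycolysis median was -0.027, against -0.036 for all genes under that rule.

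Gapdh was higher in BFP+ cells of both captures, with 1199 CPM in MC903 BFP+ cells against 992 CPM in MC903 BFP- cells and a log2 ratio of 0.27 (0.25 to 0.30). In untreated cells its ratio was 0.22 (0.15 to 0.29), and it was the only 1 of the 10 above 0 there. After MC903 Gpi1, Pgam1 and Ldha were also above 0, at 0.02, 0.06 and 0.08. Aldoa, the aldolase, had 164.2 CPM in BFP+ cells against 211.5 CPM in BFP- cells after MC903, a ratio of -0.37 (-0.43 to -0.30), and in untreated cells 181.5 CPM against 214.8 CPM, a ratio of -0.24 (-0.38 to -0.11). Pfkp, a phosphofructokinase, was lower in BFP+ cells by the widest margin of the 10 glycolysis genes at 20 CPM or more. Its ratio was -0.43 (-0.63 to -0.24) after MC903 and -0.53 (-0.97 to -0.12) without treatment. Pgk1 and Tpi1 were lower in both captures, at -0.22 (-0.31 to -0.14) and -0.26 (-0.38 to -0.14) after MC903 and at -0.29 (-0.49 to -0.11) and -0.34 (-0.62 to -0.08) in untreated cells. Pkm was at -0.12 (-0.19 to -0.05) and -0.25 (-0.42 to -0.08). Each of these differences was under 1.5-fold. Ldha differed in sign, at 0.08 (-0.02 to 0.17) after MC903 and -0.40 (-0.65 to -0.16) in untreated cells, and the untreated value was 0.15 with the other hashtag rule described under processing.

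Pfkfb3 was lower in BFP+ cells of both captures, with 284 against 393 CPM after MC903 and 403 against 530.2 CPM in untreated cells, ratios of -0.47 (-0.52 to -0.42) and -0.40 (-0.49 to -0.30). Ndrg1 was level after MC903, at 0.06 (-0.00 to 0.11), and higher in BFP+ than in BFP- untreated cells, at 0.50 (0.34 to 0.65), a value that was 0.02 with HTODemux. Hilpda was 0.54 (0.33 to 0.74) after MC903 and -0.62 (-1.07 to -0.20) without treatment. In untreated cells the ratio of Hilpda shrank to -0.11 without barcodes that hold more than 2 macrophage, monocyte or neutrophil UMIs. Hif1a was at -0.02 (-0.16 to 0.12) and 0.16 (-0.12 to 0.43).

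Low counts limit the rest. Hk2 was level between BFP+ and BFP- cells after MC903, at -0.06 (-0.51 to 0.38), and lower in BFP+ untreated cells, at -1.08 (-1.73 to -0.49). Slc2a1 was at -0.44 (-0.89 to -0.00) and -0.49 (-1.61 to 0.47), Vegfa at -0.04 (-0.33 to 0.25) and -0.29 (-0.83 to 0.21), and Ddit4 at 0.21 (-0.00 to 0.43) and -0.19 (-0.66 to 0.26). Of the 16 genes under 20 CPM, 3 were higher and 1 lower in BFP+ cells after MC903, where 19.4% of such genes were apart, 6.75% higher and 12.6% lower. In untreated cells 1 was higher and 6 lower, where 33.3% were apart, 11.0% higher and 22.4% lower. Among other pathway genes the glucose transporter Slc2a6 had 24.8 CPM in BFP+ cells against 39.7 CPM in BFP- cells after MC903, a ratio of -0.68 (-0.85 to -0.51), and was the only 1 of 11 apart there. In untreated cells Pygl, glycogen phosphorylase, was apart at -0.59 (-0.90 to -0.29), with 36.7 against 55.2 CPM.

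**Figure D4:**
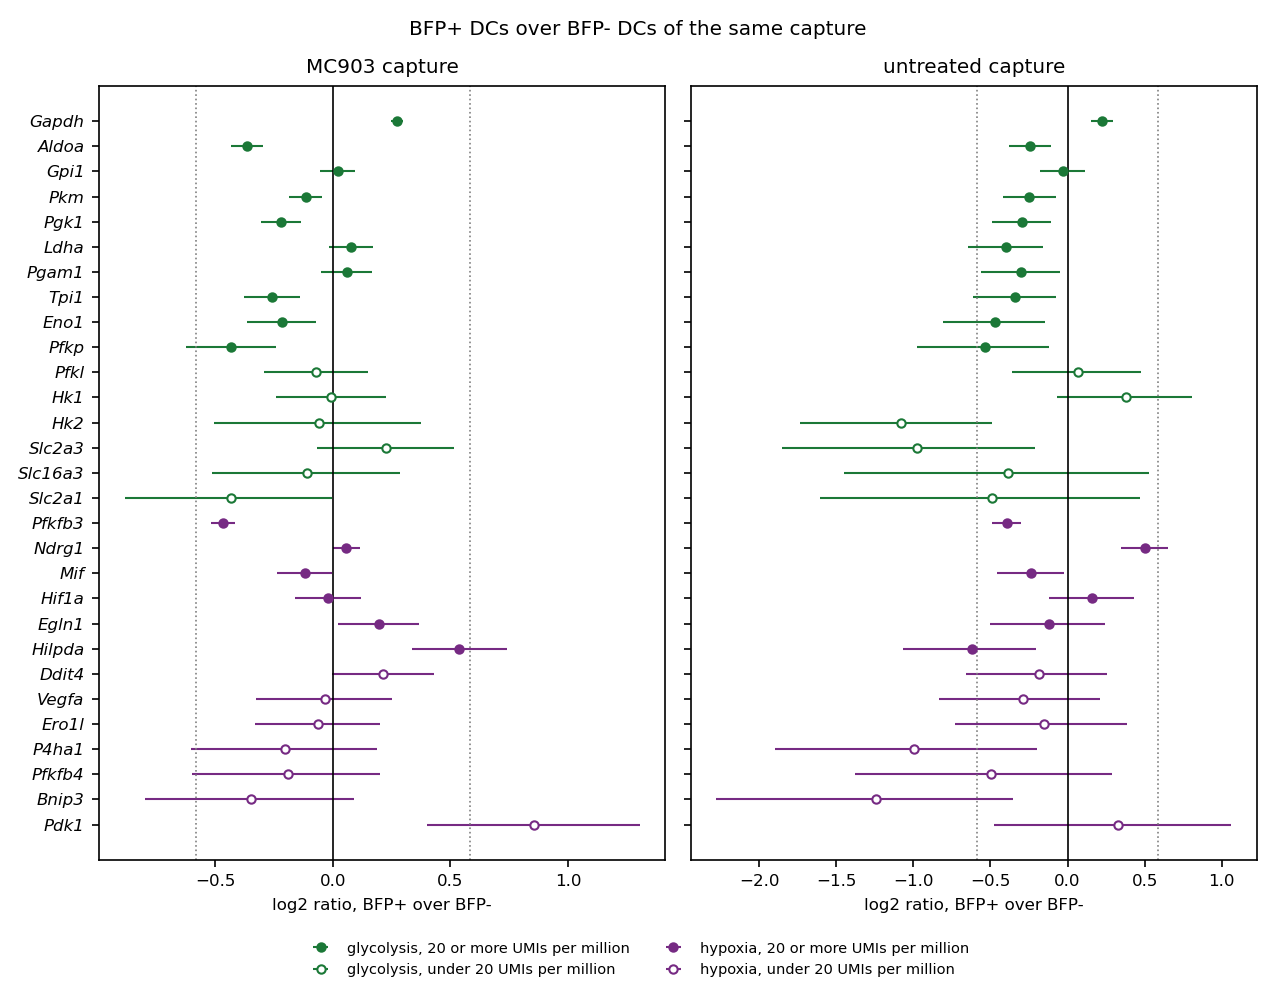
Log2 ratio of BFP+ to BFP- CPM within the MC903 capture (left) and the untreated capture (right), drawn as in the plot of MC903 over untreated, again with x axes that differ. Most enzymes lie left of 0 in both captures, Gapdh lies right of 0 in both, and Hilpda lies on opposite sides.

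DC types were gated by markers that hold none of the 32 genes: Langerhans-like (Cd207, Epcam and others), cDC1-like (Xcr1, Clec9a and others) and cDC2-like (Cd209a, Mgl2 and others). The cDC1-like list also holds Irf8, Wdfy4, Ppt1 and Naaa, and the cDC2-like list Sirpa, Itgam and Irf4. Clec9a had 0 UMIs in MC903 BFP+ cells, so none of their cDC1-like barcodes was named through it. In BFP- cells these types had 143, 849 and 588 barcodes after MC903 and 119, 748 and 548 barcodes without treatment. The remaining 1461 and 2411 DCs carried too few type markers and are called unassigned. Their depths differed, at medians of 9380, 10470, 11386.5 and 8339 UMIs after MC903, against 3600, 3427.5, 2938.5 and 2434 UMIs, for Langerhans-like, cDC1-like, cDC2-like and unassigned cells. Over the 16 measured genes, the median ratio of the highest to the lowest type was 0.50 on the log2 scale in MC903 BFP- cells. It was 0.44 in untreated BFP- cells. Several genes passed 1.5-fold between types, among them Pfkp at 1.98-fold and Ldha at 1.78-fold after MC903. The same spread over all genes is not given here.

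Among the 16 genes at 20 CPM or more, Hilpda differed most between types and had its top level in cDC2-like cells of both captures. In MC903 BFP- cells it had 13.6 CPM (8.43 to 20.8) in Langerhans-like, 6.55 CPM (5.01 to 8.42) in cDC1-like, 29.9 CPM (26.0 to 34.2) in cDC2-like and 15.4 CPM (13.3 to 17.7) in unassigned cells. In untreated BFP- cells the same types had 9.89 CPM (3.63 to 21.5), 17.5 CPM (13.7 to 22.0), 72.0 CPM (61.7 to 83.5) and 23.2 CPM (19.9 to 26.9). The cDC2-like interval lies above those of the other types in each capture, and the Langerhans-like value of untreated cells rests on 6 UMIs. Highest over lowest came to 4.57-fold after MC903 and 7.28-fold without treatment. Barcodes with macrophage, monocyte or neutrophil UMIs stayed in these types, and their part in the Hilpda levels by type was not tested. Of the genes under 20 CPM, Slc2a3 had a wider ratio, 4.71-fold after MC903 and 14.8-fold without treatment, but its lowest values, in Langerhans-like cells, rest on 4 UMIs and 1 UMI.

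Ldha was highest in cDC2-like cells too, with 133 CPM (125 to 142) after MC903 and 108 CPM (95.3 to 122) without treatment. In cDC1-like cells it had 78.1 CPM (72.5 to 84.0) and 66.3 CPM (58.6 to 74.6). Eno1, the enolase, followed that order, with 55.6 CPM in cDC2-like against 39.7 CPM in cDC1-like cells after MC903 and 55.0 against 34.2 CPM without treatment. Aldoa showed the other pattern and was lower in cDC2-like cells, with 191 CPM (181 to 202) against 274 CPM (264 to 285) in cDC1-like cells after MC903 and 186 CPM (169 to 204) against 241 CPM (226 to 256) without treatment. Pfkp was highest in cDC1-like cells after MC903, at 36.0 CPM (32.2 to 40.1), and lowest in Langerhans-like cells, at 18.2 CPM (12.1 to 26.2). In untreated cells its values of 33.0 CPM (20.1 to 50.9) in Langerhans-like, 31.5 CPM (26.4 to 37.5) in cDC1-like and 38.5 CPM (31.1 to 47.1) in cDC2-like cells had overlapping intervals, and only the unassigned cells at 22.0 CPM (18.8 to 25.6) lay below cDC1-like and cDC2-like cells. Mif was highest in cDC2-like cells after MC903, at 87.4 CPM, but in unassigned cells without treatment, at 98.5 CPM. Ndrg1 was lowest in Langerhans-like cells of both captures, at 159 and 95.6 CPM.

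Within types the MC903 differences of Hk2 and Ndrg1 had the same sign in BFP- cells. A type need not hold the same cells in both captures. Summed markers of the own type stood at 481, 1039 and 742 CPM in MC903 BFP- Langerhans-like, cDC1-like and cDC2-like cells. In the same types without treatment they stood at 709, 1186 and 1557 CPM. The same UMI gate was used at the unlike depths given above. Hk2 had 7.78 CPM in Langerhans-like, 3.65 CPM in cDC1-like, 7.76 CPM in cDC2-like and 3.15 CPM in unassigned cells after MC903, against 39.6, 11.4, 44.3 and 13.8 CPM in the same types without treatment. The log2 ratios were -2.35 (-3.48 to -1.29), -1.64 (-2.32 to -0.98), -2.51 (-3.01 to -2.03) and -2.13 (-2.70 to -1.60). Their intervals overlap one another, and each leaves out 0. Ndrg1 was higher in all 4 types, by 0.73 (0.31 to 1.17) in Langerhans-like, 1.19 (1.04 to 1.35) in cDC1-like, 0.93 (0.76 to 1.12) in cDC2-like and 1.12 (1.01 to 1.23) in unassigned cells. Gapdh ranged from 0.31 (0.16 to 0.46) in Langerhans-like to 0.83 (0.75 to 0.91) in cDC2-like cells. Pfkfb3 was lower in all 4, between -0.69 (-0.89 to -0.50) in Langerhans-like and -0.28 (-0.36 to -0.21) in cDC1-like cells.

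Hilpda was lower after MC903 in cDC1-like cells, by -1.42 (-1.93 to -0.90), in cDC2-like cells, by -1.27 (-1.56 to -0.97), and in unassigned cells, by -0.59 (-0.90 to -0.29), while its interval in Langerhans-like cells ran from -0.90 to 2.06. Vegfa was more than 1.5-fold lower in cDC2-like cells, at 10.2 CPM after MC903 against 26.5 CPM, a ratio of -1.38 (-1.89 to -0.87). By type, 0 of the 10 measured glycolysis genes were higher and 1 was lower in BFP- Langerhans-like cells, where 5.64% and 17.1% of all genes were. In cDC2-like cells 1 was higher and 0 were lower, where 8.06% and 9.34% were. In cDC1-like and unassigned cells 0 were apart, where 5.46% were higher and 4.46% lower, and 4.9% higher and 4.33% lower. Of the 6 measured hypoxia genes, 1 was higher in each of the 4 types of BFP- cells, and 2 were lower in Langerhans-like and unassigned cells and 1 in cDC1-like and cDC2-like cells, read against the same shares.

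BFP+ cells were too few for Langerhans-like cells, with 25 and 21 barcodes, and only 56 cDC1-like and 52 cDC2-like barcodes stood in the untreated pool. In BFP+ cDC1-like cells 3 glycolysis genes were higher and 1 lower, where 12.4% and 11.4% of all genes were, and in cDC2-like cells 3 were higher and 0 lower, where 8.92% and 11.1% were. In BFP+ unassigned cells 2 were higher and 0 lower, where 3.45% and 5.45% were. Of the 6 hypoxia genes, 3 were higher and 1 lower in BFP+ cDC1-like cells (median 0.62), 1 was higher and 2 lower in BFP+ cDC2-like cells (median -0.49), and 1 was higher and 0 lower in BFP+ unassigned cells (median -0.12). Ndrg1 was higher after MC903 in BFP+ cDC1-like cells, with 311 CPM against 99.1 CPM, a ratio of 1.65 (1.21 to 2.12), and level in BFP+ cDC2-like cells, with 246 CPM against 262 CPM, a ratio of -0.09 (-0.36 to 0.20). Gapdh was at 0.88 (0.71 to 1.05) and 0.80 (0.64 to 0.96) in these 2 types. Hk2 in BFP+ cDC2-like cells had 6.6 CPM after MC903 against 21.6 CPM, a ratio of -1.71 (-2.83 to -0.48) from 24 and 10 UMIs.

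**Figure D5:**
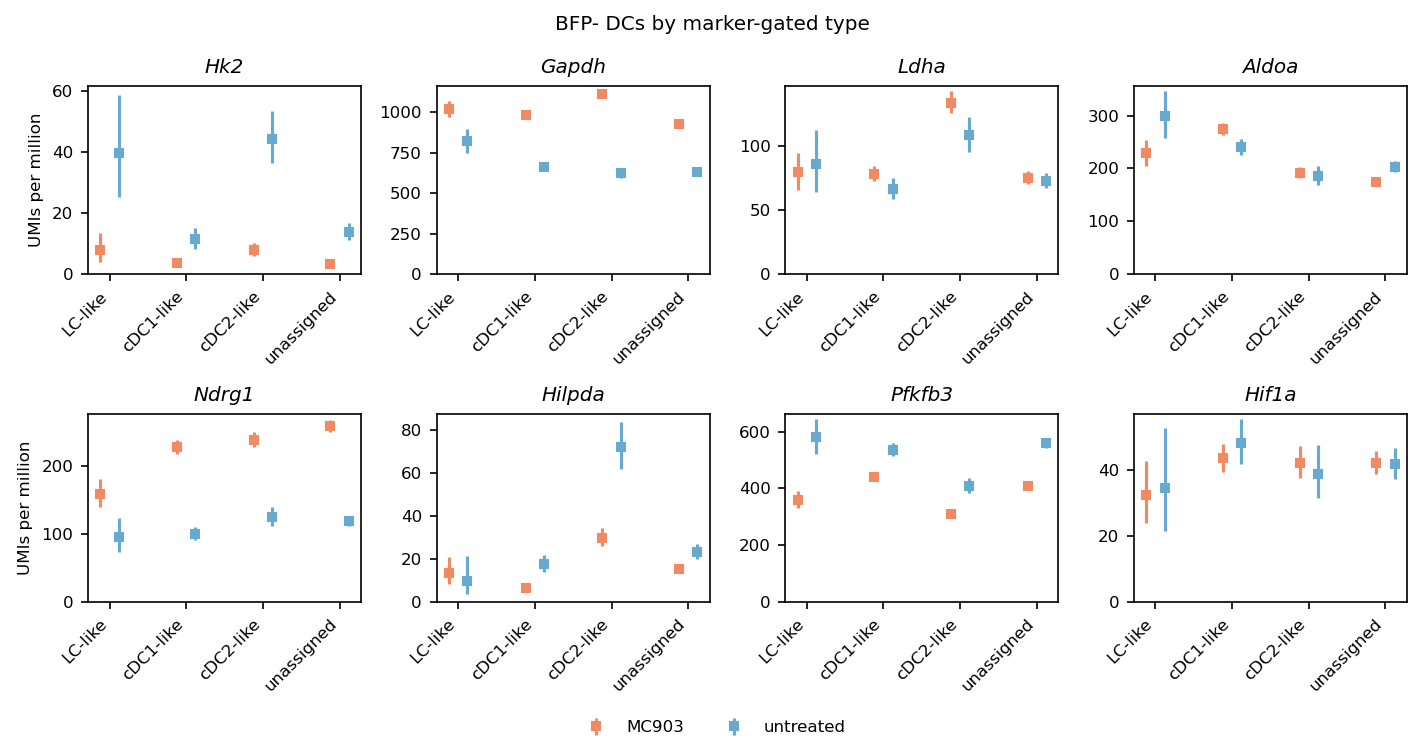
CPM of 8 genes by marker-gated type in BFP- DCs, MC903 and untreated, with exact 95% counting intervals (LC-like, Langerhans-like). Hk2 is lower and Ndrg1 higher after MC903 in each of the 4 types, and Hilpda peaks in cDC2-like cells of both captures.

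Counted together at 2000 UMIs per barcode, with shallower barcodes left out, DCs carried a median of 3 glycolysis UMIs and 1 hypoxia UMI in each of the 4 populations. The means were 3.96 and 3.75 glycolysis UMIs in MC903 BFP+ and BFP- cells, against 3.01 and 3.26 in untreated ones, and 1.52 and 1.7 hypoxia UMIs, against 1.5 and 1.77. Lymphocyte-marker barcodes that passed the sort held a different mix. After MC903, T cell marker barcodes had 398 CPM of Ldha (374 to 424), 358 CPM of Mif (335 to 382), 153 CPM of Eno1 (139 to 169) and 49.8 CPM of Pdk1 (41.5 to 59.2), each above both DC populations of that capture. They had 94.5 CPM of Pfkfb3 (83.03 to 107), below both. The MC903 ratio of Ldha in BFP- DCs was 0.42 when every barcode with a T or B cell UMI was left out, and the part of lymphocyte RNA in the DC values was not tested further.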

How the data were processed

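The deposited files are matrices of UMI counts per gene and barcode for 2 captures (10x Genomics 3′ chemistry), with hashtag counts in the same matrices. The authors made the counts with Cell Ranger (version 3.1.0 per the file headers) on GRCm38 (mm10), per the submitters' processing notes. The values are raw counts, not normalised by the authors.

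Barcodes under 500 genes, or with mitochondrial UMIs above 10%, were dropped. A barcode took the reporter class of the hashtag that held at least 80% of the 2 hashtags of its capture. The other hashtag rule tried was HTODemux (Seurat 5.3.0, positive quantile 0.99). DCs had at least 3 UMIs over at least 2 of 8 maturation genes and at most 1 UMI each of T and B cell markers. A DC type needed at least 2 UMIs from at least 2 of its markers and more than any other type, and at least 50 barcodes to be compared. No caller of doublets from gene counts was run. HTODemux marked 152 MC903 and 61 untreated barcodes as hashtag doublets, which were left out in that setting only. Barcodes with a mixed hashtag label were left out under the 80% rule (114 MC903 and 1331 untreated DCs). UMIs were summed per population and divided by the total (CPM). Ratios have exact Poisson intervals and shares have exact Clopper-Pearson intervals. Only the ratio intervals were run on simulated counts, which were drawn as Poisson counts. That run cannot show how well the intervals cover UMIs that cluster in few barcodes. With 1 pool per population no p-value was computed. Gene positions are from GENCODE vM21 on GRCm38.

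The 32 genes and all lists were chosen with earlier results of these data known. The genes named were those at 20 CPM or more and 1.5-fold apart, with Slc2a1, Hk2, Pkm, Ldha, Hif1a, Vegfa and Ddit4 in any case, at most 4 genes of each other list, and the 6 genes that varied most by type. Other genes were named after their values were seen. The alternatives were other hashtag, quality, depth and scaling rules (TMM, edgeR 4.0.16), other gates and no filter on low genes.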

Additional observations from a re-analysis of the deposited data

Results flagged for a closer look

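Hilpda differed in sign between the captures. Its log2 ratio of BFP+ to BFP- cells was 0.54 after MC903, with 23.2 against 16.0 CPM, and -0.62 in untreated cells, with 18.9 against 29.1 CPM. Each ratio compares 1 BFP+ pool with 1 BFP- pool, and the difference between the 2 ratios was not tested. Neutrophil markers summed to 172 CPM in untreated BFP- cells, against 22.1 CPM in untreated BFP+ cells. Macrophage and monocyte markers went the other way, at 442 CPM in untreated BFP- and 667 CPM in untreated BFP+ cells. The untreated ratio was -0.11 without barcodes holding more than 2 macrophage, monocyte or neutrophil UMIs. The MC903 ratio was 0.48 under the same rule. The part of each kind of cell, and of the mix of DC types, in either ratio was not tested.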

How the results depend on the processing

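No paired analysis was possible because each population is 1 pool, and no replicate could be left out. Medians and counts of genes apart were recomputed under up to 15 settings, and 137 values stayed and 25 did not stay within the range of the reported value (1.5 times for counts, the counting interval for medians). The 3 settings that use a UMI window of 4000 to 16000, no T or B cell UMI, or at most 2 macrophage, monocyte or neutrophil UMIs were chosen after seeing the data. The count apart between BFP+ and BFP- cells after MC903, reported as 0, was 1 with HTODemux, at most 5% mitochondrial UMIs, thinning to 2000 UMIs, the mean CPM per barcode or no T or B cell UMI, and 4 with no filter on low genes. In untreated cells the same count, reported as 1, was 0 with a hashtag share of 90%, no DC gate, without the 5% deepest barcodes, with 4000 to 16000 UMIs, at most 2 macrophage, monocyte or neutrophil UMIs, TMM or a fold of 2, was 2 with at most 5% mitochondrial UMIs, thinning, the mean CPM per barcode or no T or B cell UMI, and was 8 with no filter on low genes. The MC903 counts, reported as 3 in both classes, were 0 in BFP+ and 1 in BFP- cells at a fold of 2, and 6 and 11 with no filter. The glycolysis median of BFP+ over BFP- untreated cells was -0.027 with HTODemux, against -0.30 as reported. The glycolysis median of MC903 over untreated BFP- cells was -0.070 with the mean CPM per barcode, against 0.05. The hypoxia median in BFP- cells was -0.43 with no filter, against -0.29. TMM moved the median of all genes from -0.03 to 0.08 in BFP+ and 0.09 in BFP- cells. For single genes, 413 values stayed within their interval and 67 did not. Over all settings the MC903 ratio in BFP- cells ran from -2.32 to -1.75 for Hk2, from 0.96 to 1.19 for Ndrg1, from 0.46 to 0.73 for Gapdh, from -1.20 to -0.42 for Hilpda and from -0.12 to 0.42 for Ldha, and in BFP+ cells from -1.84 to -0.52 for Hk2, from 0.50 to 0.90 for Ndrg1, from 0.58 to 0.78 for Gapdh, from 0.34 to 0.84 for Ldha and from -0.30 to 0.74 for Hilpda. The cause of these shifts was not tested. Intervals cover counting error only, and variation between mice, pools and captures is not measured.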
